A study of Mus musculus with 11 samples.

Results

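The genes described here encode integrins, laminins and other proteins of the basement membrane, 41 of the 19505 genes with a symbol on the array. They were chosen by name, with earlier results of these data known. The symbol pattern took 25 integrin subunits (16 alpha and 9 beta chains), 10 laminin chains and Itgb3bp. The last matches the pattern by its symbol but encodes a centromere protein and not an integrin chain. Nid1, Nid2, Hspg2, Agrn and Sparc were added by name. Itga1 and Itga10 were not analysed here.

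Transcripts were measured in LSEC, the liver sinusoidal endothelial cells that line hepatic capillaries with open pores, on 11 Mouse Clariom S arrays. The 5 autophagy deficient samples came from Atg5lox/lox;VE-cadherin-Cre mice, in which Cre under the endothelial VE-cadherin promoter removes floxed Atg5, a gene needed to build autophagosomes. The 6 wild type samples came from Atg5lox/lox mice, which carry the same floxed alleles without Cre. All mice were 8 weeks old when a high fat diet of 2 weeks began, so both groups share the floxed alleles and the diet, and VE-cadherin is active in endothelium of other organs as well as in LSEC. The comparison sets LSEC samples of mice with this Cre against those of mice without it under this diet. In which cells Atg5 was lost was not tested. The titles number biological replicates without saying that each is 1 mouse, and p-values therefore cover the spread between these samples only.

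Integrins are paired alpha and beta chains that span the cell membrane and bind matrix proteins or counter-receptors on other cells. Laminins are trimers of an alpha, a beta and a gamma chain, and they form the basement membrane together with collagen IV, nidogens, perlecan and agrin. In the normal liver sinusoid the endothelium lies on a loose matrix and not on a continuous basement membrane, and such a membrane forms when sinusoids become capillary-like.

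All values below are log2 values made by RMA, and differences are autophagy deficient minus wild type on that scale. A member was called by the study's own rule, a change of at least 1.5-fold with an unadjusted p of at most 0.05, here from limma. Atg5 itself read 7.48, 7.57, 7.54, 7.90 and 7.53 in autophagy deficient replicates 1 to 5, against 7.38 at the lowest, 7.535 at the median and 7.59 at the highest in wild type. Its level was therefore not lower in autophagy deficient arrays (difference 0.10, SE 0.10, exact permutation p = 0.245). Where its probes lie relative to the floxed part was not known, so Atg5 does not check the labels. LSEC markers were bright: all 16 lay above the 95th percentile of the antigenomic background probes on every array, and their mean was 11.916 to 12.226 in autophagy deficient arrays and 11.878 to 12.199 in wild type.

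Promoter sequence at the start sites of these genes was searched for short motifs. RefSeq windows of 300 bases (250 before and 50 after the start, build GRCm38.p6) were held for 27 of the 41 members, 31 windows in all. Some genes had more than 1 window, and Itgal, Itgb2 and Lamc1, described below, had none. The GC box letters GGGCGG, searched on both strands, were in 7 of 11 laminin and basement membrane windows (63.6%), in 9 of 19 integrin windows (47.4%) and in 35.7% of all 32851 windows. The letters TATAAA were in 0 of the 31 member windows and in 13.6% of all windows. Median GC content was 59.3% in member windows and 52.7% in all windows, and its part in these counts was not tested. The 3 windows that follow are all on the plus strand and are shown because they hold the GC box, chosen after the matches were seen, in genes of 3 roles: perlecan (Hspg2, chr4:137468553-137468852), a laminin beta chain (Lamb1, chr12:31265043-31265342) and the shared integrin beta chain (Itgb1, chr8:128685404-128685703). Capitals mark GGGCGG or its complement CCGCCC.
Hspg2: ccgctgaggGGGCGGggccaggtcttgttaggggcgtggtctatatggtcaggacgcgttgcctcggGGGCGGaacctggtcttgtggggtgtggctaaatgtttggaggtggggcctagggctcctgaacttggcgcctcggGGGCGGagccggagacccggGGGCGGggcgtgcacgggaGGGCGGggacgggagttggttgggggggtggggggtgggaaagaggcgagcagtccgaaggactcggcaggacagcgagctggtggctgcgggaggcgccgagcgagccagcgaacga
Lamb1: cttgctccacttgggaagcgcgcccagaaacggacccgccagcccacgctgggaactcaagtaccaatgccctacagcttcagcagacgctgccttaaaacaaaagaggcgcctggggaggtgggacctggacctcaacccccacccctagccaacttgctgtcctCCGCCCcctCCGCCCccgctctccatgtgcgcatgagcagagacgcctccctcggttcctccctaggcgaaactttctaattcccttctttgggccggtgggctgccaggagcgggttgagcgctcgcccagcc
Itgb1: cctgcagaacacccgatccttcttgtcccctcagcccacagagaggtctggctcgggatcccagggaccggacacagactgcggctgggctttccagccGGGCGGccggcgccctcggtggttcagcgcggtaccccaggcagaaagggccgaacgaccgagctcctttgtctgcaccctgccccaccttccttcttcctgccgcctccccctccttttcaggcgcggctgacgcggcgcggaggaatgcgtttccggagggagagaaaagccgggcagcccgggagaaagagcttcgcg
The Hspg2 window holds 5 such matches, the Lamb1 window 2 and the Itgb1 window 1.

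The leukocyte integrin genes Itgam, Itgax and Itgad stand next to one another as consecutive protein-coding genes on chromosome 7 in the same annotation. The Itgam window (chr7:128062390-128062689, plus strand) is shown for the letters AGGAAG, the core that ETS factors such as PU.1 of myeloid cells bind, again chosen after the matches were seen. Capitals mark AGGAAG or its complement CTTCCT.
Itgam: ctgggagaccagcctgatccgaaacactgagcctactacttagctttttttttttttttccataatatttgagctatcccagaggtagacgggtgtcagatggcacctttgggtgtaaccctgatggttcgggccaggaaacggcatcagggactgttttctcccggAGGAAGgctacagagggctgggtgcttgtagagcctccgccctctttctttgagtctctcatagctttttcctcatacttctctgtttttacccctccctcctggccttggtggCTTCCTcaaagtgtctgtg
AGGAAG was in 15 of the 31 member windows (48.4%) and in 35.4% of all windows. Another motif, TGANTCA of AP-1 factors, was in 3 of the 31 (9.68%) and in 7.81% of all. These matches describe the letters in each window only.

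Across the 41 members, Itgal and Itgb2, the 2 chains of the leukocyte integrin LFA-1, were higher in autophagy deficient LSEC by the study's rule, and no member was lower. That is 4.88% of the members, against 1.03% of the 22206 transcript clusters called in either direction (0.671% higher and 0.356% lower). At an unadjusted p of at most 0.05 without the fold, limma took Itgal, Itgb2 and Lamc1 as higher and Itgb6 as lower, 4 of 41 members (9.76%), against 6.39% of all clusters (2.61% higher and 3.78% lower). All clusters split into 579 higher and 840 lower at that p, and into 861 higher and 478 lower when each array was centred on its median. After Benjamini-Hochberg adjustment over all clusters limma called 0 members (0.0% of all clusters were called), with member adjusted p-values of 0.765 to 0.995. No member had groups without overlap, against 0.18% of clusters that lay wholly higher and 0.293% that lay wholly lower.

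The difference was above 0 for 29 of the 41 members (70.7%), against 46.0% of all clusters, and the members' median difference was 0.079, against -0.018 for all clusters. When the mean of the macrophage markers entered the fit as a covariate, 19 of the 41 were above 0. The members' median was then -0.034, against -0.075 for all clusters in the same fit. For 19 members the difference was smaller than 0.1 in either direction. For 27 of 41 the 95% interval of the difference lay inside a 1.5-fold change, so for these a larger change was outside the interval. The 27 include Lamb3, Itgad and Itgae, whose signal was below or near background, so their intervals say little about a change. Signal was above the antigenomic mean, the level of probes that match no mouse sequence, on all arrays for 37 of the 41 members. Of all 22206 clusters 16624 were above it on all arrays. Lamb3 lay below it on every array and is given no fold. Itgad and Itgae were above it on 10 of 11 arrays each, and Itgb3bp on 5 of 11.

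**Figure D1:**
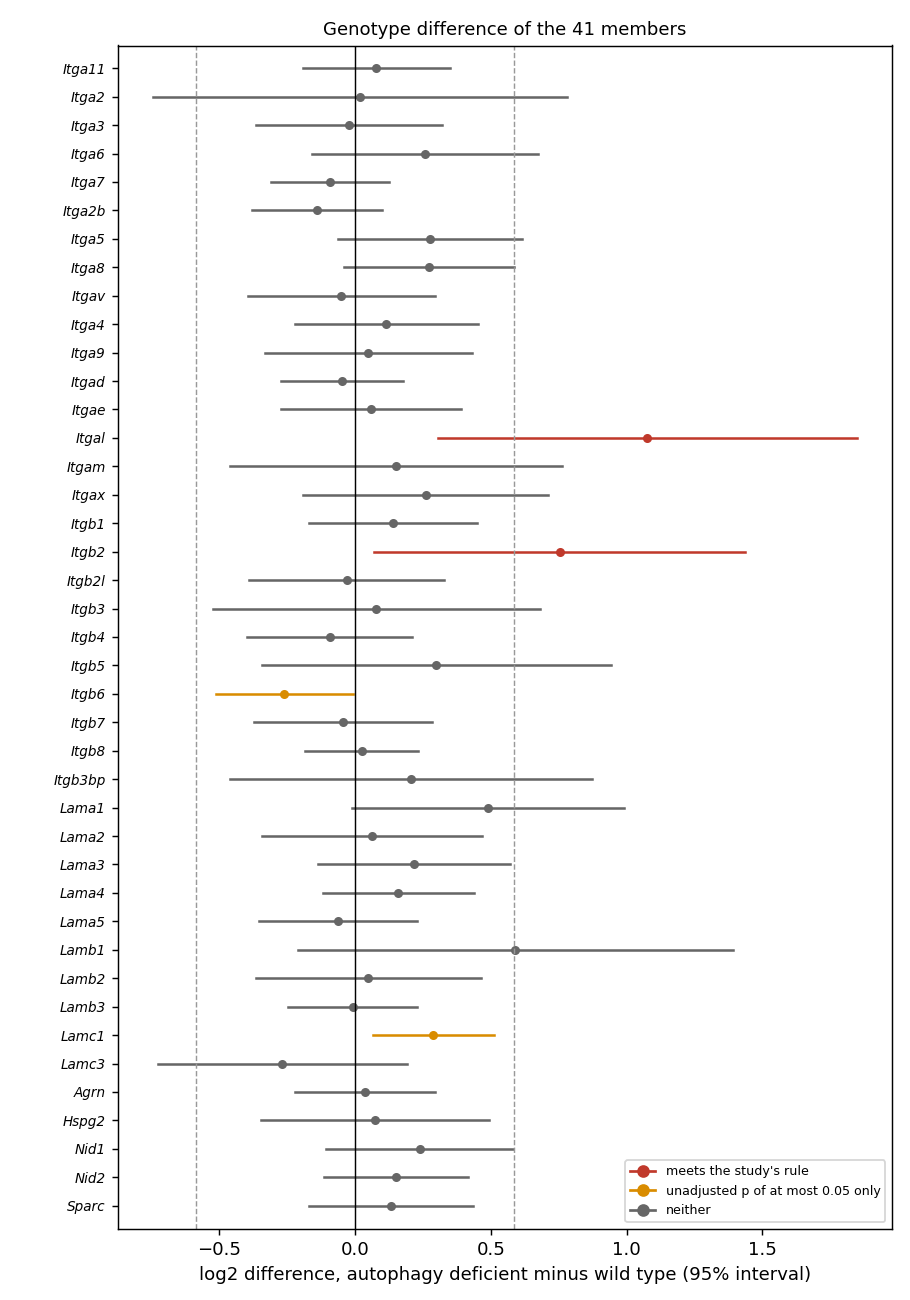
Log2 difference, autophagy deficient minus wild type, for each of the 41 members, with limma's 95% interval, grouped by role. Itgal and Itgb2 meet the study's rule, Lamc1 and Itgb6 pass only the unadjusted p of 0.05, and the intervals of the other members include 0. Lamb3 was below background on every array.

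Among the alpha chains of matrix receptors, none was called. The collagen receptor chains were level: Itga2 read 7.12, 6.02, 7.20, 7.14 and 6.72 in autophagy deficient arrays, against 5.85, 7.03 and 7.61 at the lowest, median and highest wild type array. Single arrays of either genotype differed by up to 1.76, and the group difference was 0.02 (SE 0.35, limma adjusted p = 0.995). Itga11, a receptor for fibrillar collagen best known from fibroblasts, read 5.47, 5.5, 5.36, 5.45 and 5.65 in autophagy deficient arrays, against 5.09, 5.385 and 5.84 in wild type, a difference of 0.08 (SE 0.13). All autophagy deficient arrays lay inside the wild type range.

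The laminin receptor chains pair with Itgb1, and Itga6 also with Itgb4. Itga6 read 8.97, 8.53, 8.95, 8.59 and 8.73 in autophagy deficient arrays, against 7.94, 8.575 and 8.95 in wild type. Only replicate 1 exceeded the wild type range, and the difference was 0.26 (SE 0.19, limma adjusted p = 0.790, exact permutation p = 0.268). Itga3 read 7.24, 7.61, 7.37, 7.09 and 7.38 in autophagy deficient arrays and 6.97, 7.37 and 7.73 at the lowest, median and highest wild type array (difference -0.02, SE 0.16). Itga7, known as the laminin receptor of muscle, read 5.96, 6.11, 5.99, 6.23 and 6.07 in autophagy deficient arrays, against 6.01, 6.155 and 6.34 in wild type (difference -0.09, SE 0.10). For both genes the groups overlapped.

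Of the chains whose integrins recognise the RGD peptide of fibronectin, vitronectin or fibrinogen, Itga5 and Itga8 averaged higher in autophagy deficient arrays without passing the test. Itga5, the fibronectin receptor chain, read 9.59, 10.29, 9.85, 9.94 and 9.89 in autophagy deficient arrays, against 9.15, 9.68 and 9.98 in wild type. Only replicate 2 exceeded the highest wild type array, and the difference was 0.28 (SE 0.16, limma adjusted p = 0.765, exact permutation p = 0.126). Itga8, a receptor chain for nephronectin found on mesenchymal cells such as stellate cells, read 9.74, 9.45, 9.18, 9.30 and 9.74 in autophagy deficient arrays, against 8.92, 9.165 and 9.60 in wild type. Replicates 1 and 5 lay above every wild type array (difference 0.27, SE 0.15, limma adjusted p = 0.765, exact permutation p = 0.104). The mean of 14 measured stellate cell and fibroblast markers was 7.831 to 9.009 in autophagy deficient arrays and 7.559 to 8.666 in wild type. Of these markers 13 averaged higher and 0 were called, and their part in these values was not tested.

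Itgav, the common chain of vitronectin and latent TGF-beta receptors, read 10.16, 9.98, 10.45, 10.61 and 10.11 in autophagy deficient arrays, against 10.03, 10.225 and 10.66 in wild type. Its groups overlapped over most of their span (difference -0.05, SE 0.16). Itga2b, the fibrinogen receptor chain of platelets and megakaryocytes, read 7.97, 8.18, 8.15, 8.44 and 8.33 in autophagy deficient arrays, against 8.18, 8.37 and 8.51 in wild type. Replicates 1 and 3 lay below every wild type array, and the difference of -0.14 (SE 0.11) missed the threshold (limma adjusted p = 0.800, exact permutation p = 0.171). The mean of 7 platelet markers was 7.303 to 7.470 in autophagy deficient arrays and 7.229 to 7.754 in wild type, 0 of them called. All 7 averaged lower, with a median difference of -0.152, and their part in the Itga2b value was not tested. Clec1b, at 10.56 to 11.43, is among these 7 and also among the LSEC markers.

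Itga9, a chain of receptors for tenascin and other ligands, and Itga4, which pairs with Itgb1 or Itgb7 to bind VCAM-1 and fibronectin, did not separate the genotypes. Itga9 read 11.53, 11.76, 11.12, 10.86 and 11.21 in autophagy deficient arrays, against 10.89, 11.32 and 11.54 in wild type (difference 0.05, SE 0.18). Itga4 read 7.62, 7.37, 6.84, 7.62 and 7.09 in autophagy deficient arrays, against 7.01, 7.135 and 7.43 in wild type (difference 0.12, SE 0.16). Its autophagy deficient values spread to both sides of the wild type range.

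**Figure D2:**
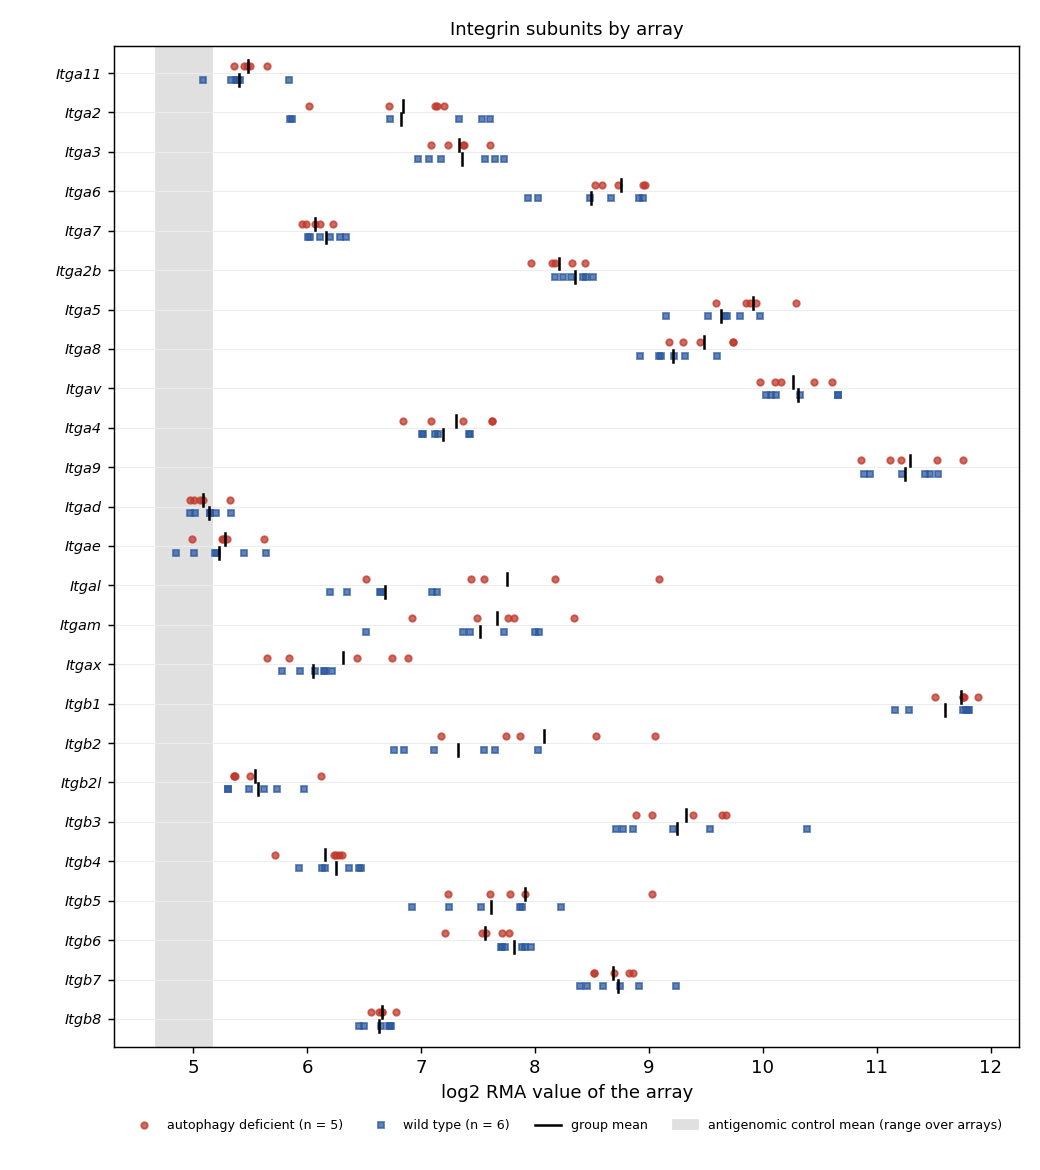
Log2 RMA value (horizontal axis) of each integrin chain on each array, with autophagy deficient arrays drawn above wild type arrays, a bar at each group mean and the range of the antigenomic control mean shaded (4.67 to 5.168). Itgal and Itgb2 show the wide spread of autophagy deficient arrays, and most other chains overlap closely.

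The leukocyte chains hold both called members. Itgal, the alpha chain of LFA-1 that binds ICAM-1, read 8.18, 9.09, 6.52, 7.44 and 7.55 in autophagy deficient arrays, against 6.20, 6.645 and 7.14 in wild type. All autophagy deficient arrays but replicate 3 lay above the highest wild type array. The means were 7.756 ± 0.953 (SD, n = 5) in autophagy deficient and 6.680 ± 0.382 (n = 6) in wild type LSEC, a 2.11-fold difference (1.08 on the log2 scale, SE 0.36, limma unadjusted p = 0.00988, adjusted p = 0.765, exact permutation p = 0.0260). Itgb2, its beta partner, read 8.54, 9.05, 7.18, 7.87 and 7.75 in autophagy deficient arrays, against 6.76, 7.33 and 8.03 in wild type. Here only replicates 1 and 2 exceeded the wild type range. Itgb2 averaged 8.078 ± 0.727 (SD, n = 5) in autophagy deficient and 7.325 ± 0.499 (n = 6) in wild type LSEC, a 1.69-fold difference (0.75 on the log2 scale, SE 0.32, limma unadjusted p = 0.0329, adjusted p = 0.765, exact permutation p = 0.0671). Without autophagy deficient replicate 2 the Itgb2 difference was 0.51, without replicate 1 it was 0.64, and in both fits it was no longer called. The call was also lost without wild type replicate 2, 3 or 6, at differences of 0.71, 0.64 and 0.66. Both genes exceeded the antigenomic mean on all 11 arrays. Itgal lay above the 95th percentile of the antigenomic probes on 2 of the 11, and Itgb2 on 3.

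The other alpha partners of Itgb2 were not called. Itgam, the alpha chain of Mac-1 on macrophages and neutrophils, read 8.34, 7.49, 7.82, 7.76 and 6.92 in autophagy deficient arrays, against 6.52, 7.58 and 8.04 in wild type (difference 0.15, SE 0.28, limma adjusted p = 0.923). Itgax, the CD11c chain of dendritic cells and some macrophages, read 6.75, 6.89, 5.65, 6.44 and 5.84 in autophagy deficient arrays, against 5.78, 6.11 and 6.22 in wild type. Replicates 1, 2 and 4 lay above and replicate 3 below the wild type range (difference 0.26, SE 0.21, limma adjusted p = 0.802). Itgad lay between 4.97 and 5.32 in autophagy deficient and between 4.97 and 5.33 in wild type arrays, near background. Itgae, the chain that binds E-cadherin together with Itgb7, lay between 4.99 and 5.62 in autophagy deficient and between 4.85 and 5.64 in wild type arrays. The 5 leukocyte alpha chains had a median difference of 0.151, and 4 of the 5 were above 0 (after repeated quantile normalization Itgad was above 0 as well).

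Markers of macrophages moved with Itgal and Itgb2. Of 15 measured macrophage markers 12 were higher by the study's rule and 14 averaged higher, with a median difference of 1.084. Their mean was 8.859, 10.40, 8.011, 8.372 and 9.117 in autophagy deficient replicates 1 to 5, and 7.465 to 8.729 in wild type. Replicates 2 and 3 were the highest and the lowest autophagy deficient arrays in this mean, in Itgal and in Itgb2. With the macrophage mean as a covariate the differences were 0.15 for Itgal and 0.003 for Itgb2, and neither was called. The lymphocyte marker mean was 6.497, 6.428, 5.812, 5.838 and 5.646 in autophagy deficient replicates 1 to 5. It was 5.64 to 6.20 in wild type, and the lymphocyte markers had a median difference of 0.138. Replicates 1 and 2 were the highest autophagy deficient arrays in this lymphocyte mean, in Itgal and in Itgb2. The neutrophil marker mean was 6.002 to 7.651 in autophagy deficient and 6.031 to 7.203 in wild type arrays, with a median difference of -0.067. The macrophage mean itself averaged 8.952 in autophagy deficient and 7.888 in wild type arrays. A fit with it as a covariate therefore also takes out difference between the genotypes, and cannot decide the part of these markers. In such bulk RNA more cells of a type and more RNA per cell cannot be told apart, and the part of these markers in the LFA-1 result was not tested.

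**Figure D3:**
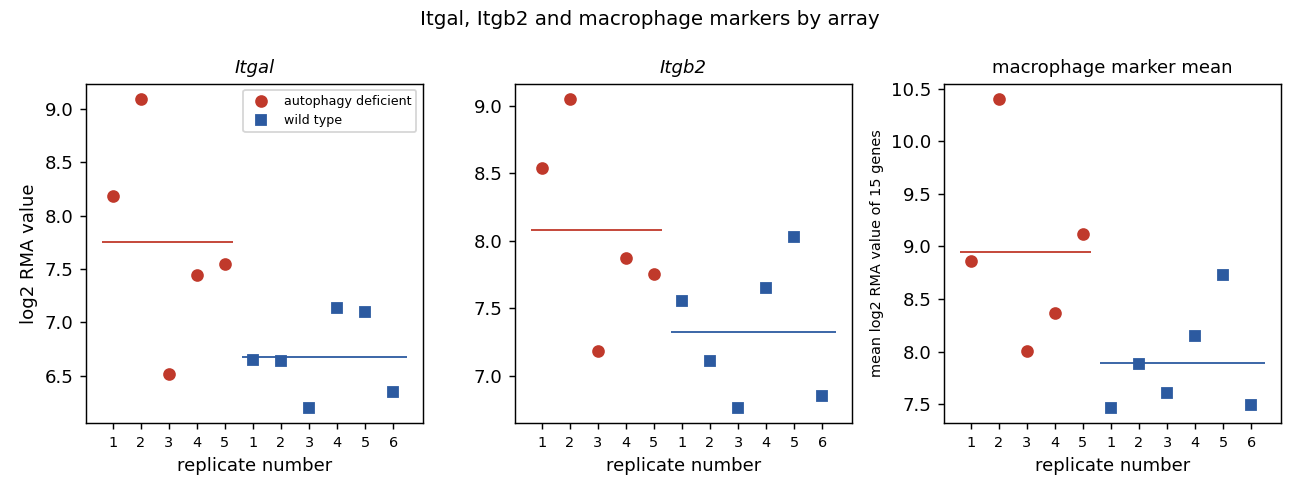
Log2 RMA values of Itgal and Itgb2 and the mean of 15 macrophage markers (vertical axes) by replicate number, autophagy deficient replicates left of wild type, with a line at each group mean. Autophagy deficient replicate 2 is the highest and replicate 3 the lowest of its group in all 3 panels.

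Of the other beta chains, Itgb6 averaged lower in autophagy deficient LSEC. Itgb6 forms an epithelial receptor with Itgav that activates latent TGF-beta. It read 7.54, 7.21, 7.77, 7.57 and 7.71 in autophagy deficient arrays, against 7.70, 7.815 and 7.97 in wild type. Replicates 1, 2 and 4 lay below every wild type array, and all 5 lay below the wild type mean (difference -0.26, SE 0.12, limma unadjusted p = 0.0437, adjusted p = 0.765, exact permutation p = 0.0325). The change was under 1.5-fold and therefore outside the study's rule. Itgb6 exceeded the 95th percentile of the antigenomic probes on 1 of the 11 arrays. The unadjusted p rose above its threshold without autophagy deficient replicate 1, 2 or 4 or wild type replicate 2, 3 or 6, with differences of -0.31 to -0.17 over all 11 such fits. The mean of 7 cholangiocyte markers was 6.38 to 6.72 in autophagy deficient and 6.411 to 7.057 in wild type arrays, with a median difference of -0.153. Of the 7, 5 averaged lower and 2 higher, and none met the study's rule. Over all clusters 3.78% were lower at the unadjusted p that Itgb6 passed, and of the 7 markers 2 were. These were Sox9 (difference -0.48, SE 0.16) and Krt7 (-0.30, SE 0.12), each with an exact permutation p of 0.0281 and both named after their values were seen, and the part of these markers in the Itgb6 value was not tested.

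Itgb1, the partner of most matrix-binding alpha chains, was steady. It read 11.76, 11.51, 11.89, 11.77 and 11.76 in autophagy deficient arrays, against 11.16, 11.77 and 11.81 in wild type (difference 0.14, SE 0.14, 95% interval -0.171 to 0.450). The interval lies inside a 1.5-fold change. Itgb5, a partner of Itgav for vitronectin, read 7.78, 9.03, 7.24, 7.61 and 7.91 in autophagy deficient arrays, against 6.92, 7.70 and 8.23 in wild type. Replicate 2 alone exceeded the wild type range (difference 0.30, SE 0.30, limma adjusted p = 0.840). Without that replicate the difference was 0.02, and with the macrophage covariate it was -0.51 (limma unadjusted p = 0.00655), under 1.5-fold.

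Itgb3, the other partner of Itgav and of Itga2b, was added after its values were seen because of 1 wild type array. It lay between 8.89 and 9.68 in autophagy deficient arrays and between 8.71 and 10.39 in wild type, where replicate 4 held the top value. The difference was 0.08 (SE 0.28). Itgb4, Itgb7, Itgb8 and Itgb2l, a mouse gene resembling Itgb2, differed by -0.09, -0.04, 0.02 and -0.03, each with overlapping groups. Of the 9 beta chains 5 were above 0, with a median of 0.025, and Itgb3 and Itgb2l changed sign after repeated quantile normalization. Itgb3bp lay between 4.31 and 5.81 in autophagy deficient and between 4.13 and 5.59 in wild type arrays, and without it the other 40 members had a median difference of 0.077, 28 of them above 0.

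Of the laminin chains none met the study's rule, and Lamc1 was the 1 chain with an unadjusted p of at most 0.05. Lamc1 is the gamma chain of most laminin trimers. It read 8.87, 9.09, 9.21, 9.16 and 8.89 in autophagy deficient arrays, against 8.62, 8.77 and 8.90 in wild type. Replicates 2, 3 and 4 exceeded every wild type array, and replicates 1 and 5 lay just under the highest. The means were 9.044 ± 0.156 (SD, n = 5) in autophagy deficient and 8.755 ± 0.111 (n = 6) in wild type LSEC, a 1.22-fold difference (0.29 on the log2 scale, SE 0.10, limma unadjusted p = 0.0155, adjusted p = 0.765, exact permutation p = 0.00866). Replicate 3, the lowest autophagy deficient array for Itgal, was the highest for Lamc1, while replicates 2 and 4 exceeded the wild type range for both genes. Leaving out any 1 array gave differences of 0.25 to 0.33 with p still under the threshold. The limma unadjusted p was 0.0883 after repeated quantile normalization and 0.139 without the 4 arrays with the highest intron control signal. Lamc3 went the other way, with 6.97, 7.21, 6.72, 7.04 and 7.01 in autophagy deficient arrays, against 6.66, 7.265 and 7.89 in wild type (difference -0.27, SE 0.21, limma adjusted p = 0.801).

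The alpha chains decide which receptors a laminin trimer binds, and 4 of the 5 averaged above 0, with a median of 0.16. Lama4, the chain of endothelial laminin, read 10.70, 10.75, 10.15, 10.44 and 10.57 in autophagy deficient arrays, against 10.23, 10.28 and 10.66 in wild type (difference 0.16, SE 0.13, limma adjusted p = 0.802, exact permutation p = 0.229). Replicate 3 lay below the wild type range and replicates 1 and 2 above it. Lama1, best known from early embryos and epithelia, read 6.84, 7.90, 6.49, 7.02 and 6.68 in autophagy deficient arrays, against 6.18, 6.46 and 7.02 in wild type. Replicate 2 stood above all others (difference 0.49, SE 0.23, limma unadjusted p = 0.0539, adjusted p = 0.765, exact permutation p = 0.0801). Without autophagy deficient replicate 2 the difference was 0.26. It met the study's rule without autophagy deficient replicate 3 (0.61) or wild type replicate 2 (0.60), and with the macrophage covariate it was 0.01. Lama3, an epithelial chain, read 7.21, 8.00, 7.66, 7.29 and 7.82 in autophagy deficient arrays, against 7.01, 7.445 and 7.62 in wild type (difference 0.22, SE 0.16, limma adjusted p = 0.791). Lama2 and Lama5 differed by 0.06 and -0.06, with autophagy deficient arrays on both sides of the wild type range.

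Lamb1 had the widest spread among the laminins. It read 6.62, 8.32, 5.89, 7.10 and 7.23 in autophagy deficient arrays, against 5.84, 6.295 and 7.39 in wild type, so replicate 2 stood apart and the others lay inside the wild type range. The difference was 0.59, a 1.51-fold change, with SE 0.37 and a 95% interval of -0.210 to 1.391 (limma unadjusted p = 0.135, adjusted p = 0.773). Without autophagy deficient replicate 2 the difference was 0.27, and it met the study's rule without autophagy deficient replicate 3 (0.88) or wild type replicate 5 (0.78). With the macrophage covariate it was -0.38. Lamb2 read 9.10, 9.67, 9.08, 8.65 and 9.17 in autophagy deficient arrays, against 8.72, 9.01 and 9.50 in wild type (difference 0.05, SE 0.19). Lamb3, which joins Lama3 in an epithelial laminin, read 3.17, 3.41, 3.16, 3.24 and 3.36 in autophagy deficient arrays, against 3.09, 3.235 and 3.59 in wild type, below the antigenomic mean everywhere.

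**Figure D4:**
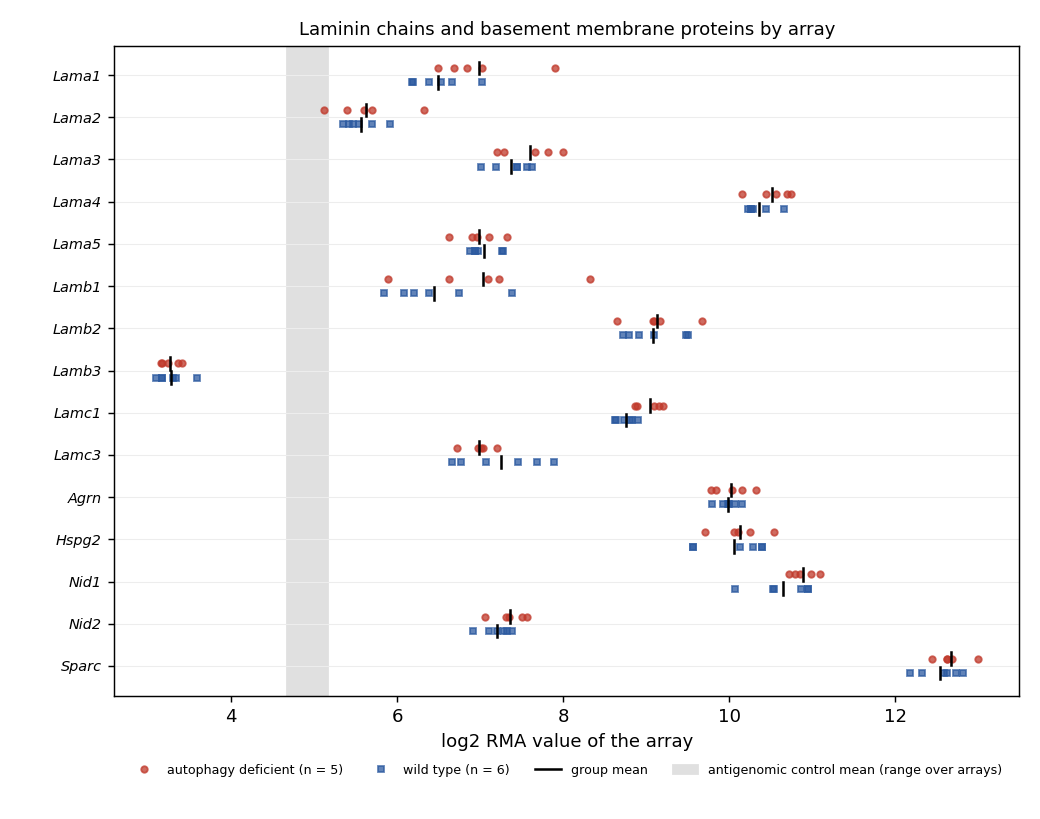
Log2 RMA value (horizontal axis) of each laminin chain and basement membrane protein on each array, with autophagy deficient arrays above wild type arrays, a bar at each group mean and the range of the antigenomic control mean shaded. For Lamc1, 3 of 5 autophagy deficient arrays exceed the highest wild type value of 8.90, and Lamb3 lies left of the shaded range.

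The 5 proteins that link or fill the basement membrane all averaged above 0, by 0.04 to 0.24 with a median of 0.133, although Agrn and Hspg2 turned below 0 after repeated quantile normalization, and none passed the test. Nid1, which bridges laminin and collagen IV, read 10.85, 11.10, 10.99, 10.72 and 10.79 in autophagy deficient arrays, against 10.07, 10.705 and 10.95 in wild type (difference 0.24, SE 0.16, limma adjusted p = 0.780, exact permutation p = 0.191). Replicates 2 and 3 exceeded the wild type range. Nid2, its relative, read 7.06, 7.35, 7.31, 7.51 and 7.56 in autophagy deficient arrays, against 6.91, 7.25 and 7.39 in wild type (difference 0.15, SE 0.12, exact permutation p = 0.212). Replicates 4 and 5 were above that range, so the top arrays of the nidogens differed.

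Sparc, a collagen-binding matricellular protein, read 12.63, 13, 12.63, 12.44 and 12.69 in autophagy deficient arrays, against 12.18, 12.605 and 12.82 in wild type (difference 0.13, SE 0.14, exact permutation p = 0.364). Hspg2, the heparan sulfate proteoglycan perlecan, read 10.11, 10.54, 10.06, 9.71 and 10.25 in autophagy deficient arrays, against 9.57, 10.21 and 10.40 in wild type (difference 0.07, SE 0.20). Agrn read 10.33, 10.15, 10.04, 9.78 and 9.84 in autophagy deficient arrays, against 9.80, 9.995 and 10.16 in wild type (difference 0.04, SE 0.12). In all 3 the groups overlapped, and the 95% intervals of -0.168 to 0.434, -0.346 to 0.494 and -0.220 to 0.293 lay inside a 1.5-fold change.

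Genes of the same pathway were counted by role, beside 1.03% of all clusters called in either direction and 46.0% above 0. Of 29 measured genes of the adhesion machinery inside the cell, 1 was higher by the study's rule and 0 lower, with 22 above 0 and a median of 0.072. The called gene was Apbb1ip (RIAM), which brings talin to integrins in leukocytes. It read 8.03, 8.20, 6.81, 7.13 and 6.80 in autophagy deficient arrays, against 5.85, 6.555 and 7.04 in wild type, with replicates 1, 2 and 4 above the wild type range (1.78-fold, difference 0.83, SE 0.28, limma adjusted p = 0.765, exact permutation p = 0.0217). With the macrophage mean as a covariate its difference was 0.36, with array weights it was 0.55, and in both the call was lost. Tns3, a tensin that binds integrin tails, differed by 0.34 (SE 0.14, limma adjusted p = 0.765, exact permutation p = 0.0411). Ptk2 was not analysed here.

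Among 16 receptors for matrix other than integrins, 1 was higher and 0 lower, with 9 above 0 and a median of 0.075. Cd44, the hyaluronan receptor of leukocytes and many other cells, read 10.09, 10.59, 8.98, 10.12 and 9.80 in autophagy deficient arrays, against 7.64, 8.60 and 9.86 in wild type. Replicates 1, 2 and 4 exceeded the wild type range (2.46-fold, difference 1.30, SE 0.35, limma adjusted p = 0.765, exact permutation p = 0.0152). With the macrophage mean as a covariate the difference was 0.62 and was not called. Ddr2, a receptor tyrosine kinase for fibrillar collagen, differed by 0.50 (SE 0.19, limma adjusted p = 0.765, exact permutation p = 0.0455). It met the study's rule without autophagy deficient replicate 1 (0.61) or 3 (0.62).

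Of 27 measured matrix ligands and matrix proteins, 0 were higher and 1 was lower, with 13 above 0 and a median of -0.001. Vtn, vitronectin, is a plasma protein made by hepatocytes and a ligand of Itgav receptors. It read 9.21, 10.30, 8.90, 8.51 and 8.89 in autophagy deficient arrays, against 9.17, 9.815 and 10.78 in wild type, with replicates 3, 4 and 5 below the wild type range (difference -0.76, SE 0.32, limma adjusted p = 0.765, exact permutation p = 0.0714). Hepatocyte markers were lower in the same arrays: 10 of 16 were called lower and 0 averaged above 0, with a mean of 7.781 to 9.329 in autophagy deficient and 8.724 to 10.087 in wild type arrays. With that mean as a covariate the Vtn difference was 0.05, and its call was also lost without autophagy deficient replicate 3, 4 or 5 or wild type replicate 4 or 5 (differences -0.59 to -0.70). Smoc1, a basement membrane relative of Sparc, differed by -0.37 (SE 0.12, limma adjusted p = 0.765, exact permutation p = 0.0108). Spp1, Fbn1 and Ecm1 were not analysed here.

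Signal from intron control probes differed between arrays of both genotypes. Autophagy deficient replicates 3 and 4 and wild type replicates 1 and 6 had intron means of 5.748 to 5.965, and the other 7 arrays of 5.047 to 5.379. At this split, chosen after the intron values were seen, Itgav was 10.45 to 10.66 on the 4 arrays and 9.98 to 10.33 on the 7. Itga9 was 10.86 to 11.12 on the 4 arrays and 11.21 to 11.76 on the 7, and Hspg2 was 9.57 to 10.06 on the 4 and 10.11 to 10.54 on the 7. These 3 of 41 members (1 higher, 2 lower) had no overlap, 2.44% higher and 4.88% lower, against 6.89% of all clusters higher and 7.17% lower, so the members did not stand out in this respect. Inside the 4 and the 7 arrays the genotype difference was 0.480 and 1.503 for Itgal and 0.325 and 1.059 for Itgb2. It was 0.365 and 0.228 for Lamc1 and -0.135 and -0.341 for Itgb6. The 4 arrays hold only 2 of each genotype. These genes were picked by their p over the same 11 arrays, so their signs inside the 2 parts are no separate check. What the intron signal reflects was not tested.

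**Figure D5:**
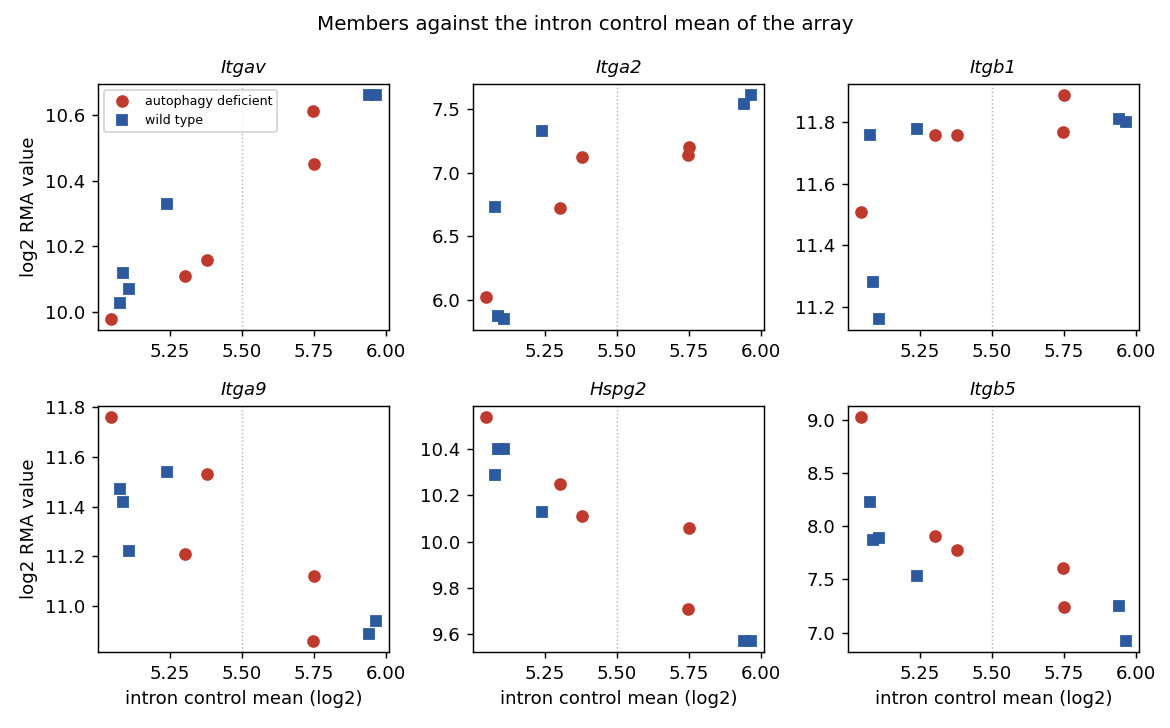
Log2 RMA values of 6 members (vertical axes, chosen after their values were seen) against the mean of the intron control probes of the same array (horizontal axis), by genotype, with the split at 5.5 dotted. Itgav lies higher, and Itga9 and Hspg2 lower, on the 4 arrays right of the split in either genotype.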

How the data were processed

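RNA of 11 LSEC samples was measured on Mouse Clariom S arrays from 100 ng of total RNA, per the labels' protocols. The authors made the values with RMA in Affymetrix Expression Console, per the submitters' processing notes, which hold no versions. The deposited values have the range of log2 values (2.15 to 13.79). RMA equalises the distribution of the arrays, so a shift shared by most genes would be lost, and weak signals are compressed. Cell isolation, scan dates and build are not given in the sources used here.

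Groups were read from the titles. The 6640 control probe sets were left out and 22206 transcript clusters were fitted in limma 3.58.1 (R 4.3.3, lmFit and eBayes on genotype alone), and p-values were adjusted by Benjamini-Hochberg across all of them. The fit was also run on simulated arrays with independent noise for each cluster. These lacked shifts shared between clusters, and no result here rests on them. The study names no test for its p, so limma was used for its rule. Exact permutation tests were two-sided over 462 splits, with a smallest p of 0.0022. The number of arrays limits the precision. The platform annotation named 19572 clusters with 1 symbol, 0 with several and 2634 with none, and 0 symbols changed against RefSeq. Where a symbol had several clusters the brightest was used.

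The members and lists were chosen with earlier results of these data known. Per-array values are given for the 5 proteins added by name, the members called by the study's rule, and in each role class the brightest member and up to 3 of smallest p, and in each pathway list for called genes. Of the other pathway genes only those with up to the 3 smallest p may be named. Alternatives were leaving out each array, median centring, the replicate number as a block, array weights, repeated quantile normalization, trend and robust variance, a filter on dim clusters, averaged clusters, a fold of 1.25, exact p-values, a stricter background line, counts without Itgb3bp, and macrophage, hepatocyte or intron means as covariates.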

Additional observations from a re-analysis of the deposited data

Results flagged for a closer look

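Single arrays stood apart from the rest of their group in 2 of the 82 member and genotype groups, where chance alone would flag about 5%. Itgb2l read 6.12 in autophagy deficient replicate 2 and 5.36 to 5.5 in the other autophagy deficient arrays. Itgb4 read 5.72 in autophagy deficient replicate 3 and 6.24 to 6.31 in the other autophagy deficient arrays. Neither gene differed between the genotypes by either threshold.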

How the results depend on the processing

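Precision was limited by 5 and 6 arrays, and 13 in place of 37 members lay above background at the 95th percentile of the antigenomic probes. Of all 22206 clusters 3710 in place of 16624 did. Adjusted calls stayed at 0 of 41 members under every alternative. The study's rule took 2 members, and 1 to 4 when single arrays were left out (1 without autophagy deficient replicate 1 or 2 or wild type replicate 3 or 6, 4 without autophagy deficient replicate 3), 1 with array weights, 1 with exact permutation p, 0 with the macrophage covariate and 5 with the hepatocyte covariate. The unadjusted count of 4 became 2 to 8 without single arrays, 2 with array weights and 9 with the hepatocyte covariate. The median of 0.079 became -0.034 with the macrophage covariate (all clusters -0.075), and the 29 members above 0 became 19. That median became 0.207 with the hepatocyte covariate (all clusters -0.014). Over all clusters the rule took 228, 171 to 314 without single arrays, 1758 with the macrophage covariate, 547 with the hepatocyte covariate and 359 without the 4 arrays of high intron signal, an alternative chosen after seeing the data. Itgal kept its call in all alternatives except the macrophage covariate. Itgb2 lost it without wild type replicates 2, 3 and 6 (0.71, 0.64 and 0.66), without autophagy deficient replicates 1 and 2, with array weights (0.495), with the macrophage covariate and with exact p. With the hepatocyte covariate Itgb5 (0.884), Lama1 (0.756) and Lamb1 (1.116) were called, and with the intron covariate Lamb1 (0.645). Lamc1 had p-values of 0.0506 with the block, 0.0883 after repeated quantile normalization and 0.139 without the 4 high intron arrays, and Itgb6 of 0.0969 with the block, 0.095 with median centring, 0.0958 with array weights, 0.053 with trend and robust variance, 0.599 with the macrophage covariate and 0.0583 without the 4 high intron arrays. Replicate numbers did not pair the samples, since deviations of same-numbered arrays correlated at 0.006, 0.389, 0.0786, -0.321 and 0.025; with the replicate block the rule took 2 members, 4 passed the unadjusted p, 27 were above 0 and the median was 0.082. Lamb3 aside, 24 of 40 members changed sign in at least 1 alternative and 16 in none; none of the sign changes involved a called member. With array weights the sign turned for Itgav (0.004), Itga9 (-0.079), Itgb3bp (-0.014) and Agrn (-0.009). With median centring the sign turned for Itga3 (0.017) and Itgb2l (0.008). With the hepatocyte covariate the sign turned for Itga2 (-0.394), Itga3 (0.041), Itgad (0.008), Itgae (-0.12), Itgb2l (0.263), Itgb7 (0.027), Itgb8 (-0.1), Lama2 (-0.074), Lama5 (0.022) and Vtn (0.047). With the intron covariate the sign turned for Itga2 (-0.043). With the macrophage covariate the sign turned for Itga11 (-0.026), Itgav (0.273), Itga9 (-0.296), Itgax (-0.051), Itgb3 (-0.188), Itgb5 (-0.514), Itgb3bp (-0.127), Lama4 (-0.034), Lamb1 (-0.375), Lamb2 (-0.266), Hspg2 (-0.297) and Sparc (-0.123). After repeated quantile normalization the sign turned for Itgad (0.04), Itgb2l (0.044), Itgb3 (-0.015), Lamb2 (-0.054), Agrn (-0.046) and Hspg2 (-0.01). With the replicate block the sign turned for Itgav (0.02), Itga9 (-0.012), Lamb2 (-0.024) and Hspg2 (-0.024). Without the 4 high intron arrays the sign turned for Itgb3 (-0.037), Itgb4 (0.022), Lama2 (-0.154) and Hspg2 (-0.005). Without single arrays the differences that crossed 0 ranged for Agrn -0.039 to 0.098, for Hspg2 -0.027 to 0.18, for Itga2 -0.176 to 0.223, for Itga3 -0.1 to 0.052, for Itga9 -0.067 to 0.158, for Itgae -0.025 to 0.142, for Itgam -0.048 to 0.338, for Itgav -0.137 to 0.021, for Itgb2l -0.176 to 0.048, for Itgb3 -0.028 to 0.308, for Itgb4 -0.158 to 0.017, for Itgb7 -0.108 to 0.06, for Itgb8 -0.01 to 0.049, for Lama2 -0.112 to 0.191, for Lama5 -0.147 to 0.028 and for Lamb2 -0.085 to 0.17. The causes were not tested.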
